A study of Mus musculus with 18 samples.

Results

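The nuclear genes of oxidative phosphorylation were followed in the lacrimal gland (LG), the gland that secretes the aqueous layer of the tear film, of male mice. They were taken as the genes whose symbol begins with Nduf, Uqcr, Atp5 or Cox4 to Cox8, or is Sdha, Sdhb, Sdhc or Sdhd, and that are not named as pseudogenes. This rule found 91 of the 54232 genes in the count table, of which 42 belonged to complex I, 4 to complex II, 8 to complex III, 20 to complex IV and 17 to complex V. The study sequenced RNA of single LGs from BALB/cJ mice (BALB/c), the control strain, and from NOD.B10Sn-H2b/J mice (NOD.H-2b), an inbred strain that carries the H2b haplotype on the NOD background and develops LG inflammation. Mice of each strain were 2, 4 or 6 months old (2M, 4M, 6M), with 3 males per group, each gland from a different mouse, and no mouse was treated. The strains differ across the whole genome, so inflammation and other strain differences cannot be told apart in these groups.

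Complexes I to IV pass electrons from NADH and succinate to oxygen within the inner mitochondrial membrane, and 3 of them pump protons across it. Complex V, the ATP synthase, lets the protons back to make ATP. Complex I oxidises NADH, complex II oxidises succinate and is also an enzyme of the TCA cycle, complex III reduces cytochrome c, and complex IV, cytochrome c oxidase, reduces oxygen. Most subunits are encoded in the nucleus and a few in mitochondrial DNA, and secretory epithelium such as LG acini draws on ATP for protein synthesis and ion transport.

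Pairs of sequences are needed to read the largest strain differences. Ndufs5, an accessory subunit of complex I, and Cox7a2l, the supercomplex factor that joins complexes III and IV, each have a processed pseudogene elsewhere in the genome that is nearly the same as their coding sequence. Ndufs5 (chr4:123712710-123718202, minus strand) is matched by BC002163 (chr16:42955631-42955949, plus strand), which differed from its 318 coding bases at 2 positions. Cox7a2l (chr17:83501918-83517330, minus strand) is matched by Gm6969 (chr12:24638669-24639010, minus strand), which differed at 2 positions over the 333 coding bases and holds 6 bases that the gene lacks. The sequences are GENCODE M21 transcripts of the GRCm38 assembly, which represents C57BL/6J and neither strain studied here. The first 270 coding bases of Ndufs5 and the first 264 of Cox7a2l are shown above their copies, with every base that differs within the stretch in capitals.
Ndufs5: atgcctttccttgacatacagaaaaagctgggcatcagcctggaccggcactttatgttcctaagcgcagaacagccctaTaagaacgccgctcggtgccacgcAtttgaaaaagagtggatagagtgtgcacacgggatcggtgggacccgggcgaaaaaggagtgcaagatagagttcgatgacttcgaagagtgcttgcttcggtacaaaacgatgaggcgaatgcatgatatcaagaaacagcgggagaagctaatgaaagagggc
BC002163: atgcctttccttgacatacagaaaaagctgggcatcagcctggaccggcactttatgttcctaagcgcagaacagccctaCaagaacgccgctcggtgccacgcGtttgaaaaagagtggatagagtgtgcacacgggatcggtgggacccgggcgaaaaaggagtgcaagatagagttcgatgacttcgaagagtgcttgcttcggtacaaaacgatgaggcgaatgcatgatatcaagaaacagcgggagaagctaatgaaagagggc
Cox7a2l: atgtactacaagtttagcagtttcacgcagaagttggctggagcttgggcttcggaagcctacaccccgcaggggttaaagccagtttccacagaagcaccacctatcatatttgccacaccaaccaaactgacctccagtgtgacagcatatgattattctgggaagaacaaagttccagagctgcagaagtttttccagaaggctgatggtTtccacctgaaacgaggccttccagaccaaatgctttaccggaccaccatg
Gm6969: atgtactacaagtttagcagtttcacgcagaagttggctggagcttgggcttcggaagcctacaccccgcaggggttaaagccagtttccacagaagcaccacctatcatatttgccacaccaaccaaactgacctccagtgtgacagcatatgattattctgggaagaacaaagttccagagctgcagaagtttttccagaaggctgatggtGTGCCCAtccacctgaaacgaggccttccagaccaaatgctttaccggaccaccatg
Laboratory strains are known to carry a longer and a shorter coding allele of Cox7a2l. The alleles of these mice were not read here, and BC002163 and Gm6969 were singled out after their counts had been seen.

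Ndufs5 had the lowest level in NOD.H-2b, relative to BALB/c, of all members at every age. Levels are given as CPM, counts relative to library size, with sizes scaled by TMM, a method that sets the bulk of genes equal between libraries. In BALB/c the level of Ndufs5 was 6.44, 6.05 and 5.57 CPM at 2M, 5.81, 5.83 and 5.55 CPM at 4M and 5.36, 5.43 and 5.96 CPM at 6M. In NOD.H-2b it was 1.30, 1.05 and 1.10 CPM at 2M, 1.20, 1.21 and 1.32 CPM at 4M and 1.11, 0.928 and 1.33 CPM at 6M. All 9 NOD.H-2b mice lay below all 9 BALB/c mice. The log2 fold change, NOD.H-2b minus BALB/c, was -2.35 at 2M (SE 0.150, adjusted p = 4.39e-07), then -2.20 at 4M (SE 0.154, adjusted p = 6.92e-06) and -2.28 at 6M (SE 0.175, adjusted p = 3.91e-06). These and all adjusted p-values below come from the quasi-likelihood test of edgeR and were adjusted by Benjamini-Hochberg over all genes tested, and a gene was called changed at an adjusted p below 0.05. Ndufs5 was the only member called with at least 2-fold at a single age.

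The counts of BC002163 lay the other way round. It had 20, 13 and 39 counts in the BALB/c mice at 2M and 260, 235 and 230 counts in the NOD.H-2b mice. At 4M the counts were 30, 29 and 32 against 240, 195 and 196, and at 6M they were 51, 44 and 33 against 207, 166 and 178. Over all ages BC002163 held 291 counts in the 9 BALB/c mice and 1907 in the 9 NOD.H-2b mice, and its mean log2 fold change was 2.60 (SE 0.155, adjusted p = 4.43e-11, edgeR). When the counts of Ndufs5 and BC002163 were summed before fitting, the strain difference of Ndufs5 fell from -2.30 (SE 0.0822, adjusted p = 3e-14) to -0.47 (SE 0.0653, adjusted p = 3.09e-06) as the mean over ages. At single ages the summed difference was -0.34 at 2M (adjusted p = 0.032), -0.39 at 4M (adjusted p = 0.0374) and -0.62 at 6M (adjusted p = 0.0026, edgeR). The summed level lay between 5.90 and 6.82 CPM in BALB/c and between 3.82 and 5.57 CPM in NOD.H-2b, so the strains still did not overlap. Which gene each read came from was not tested.

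**Figure D1:**
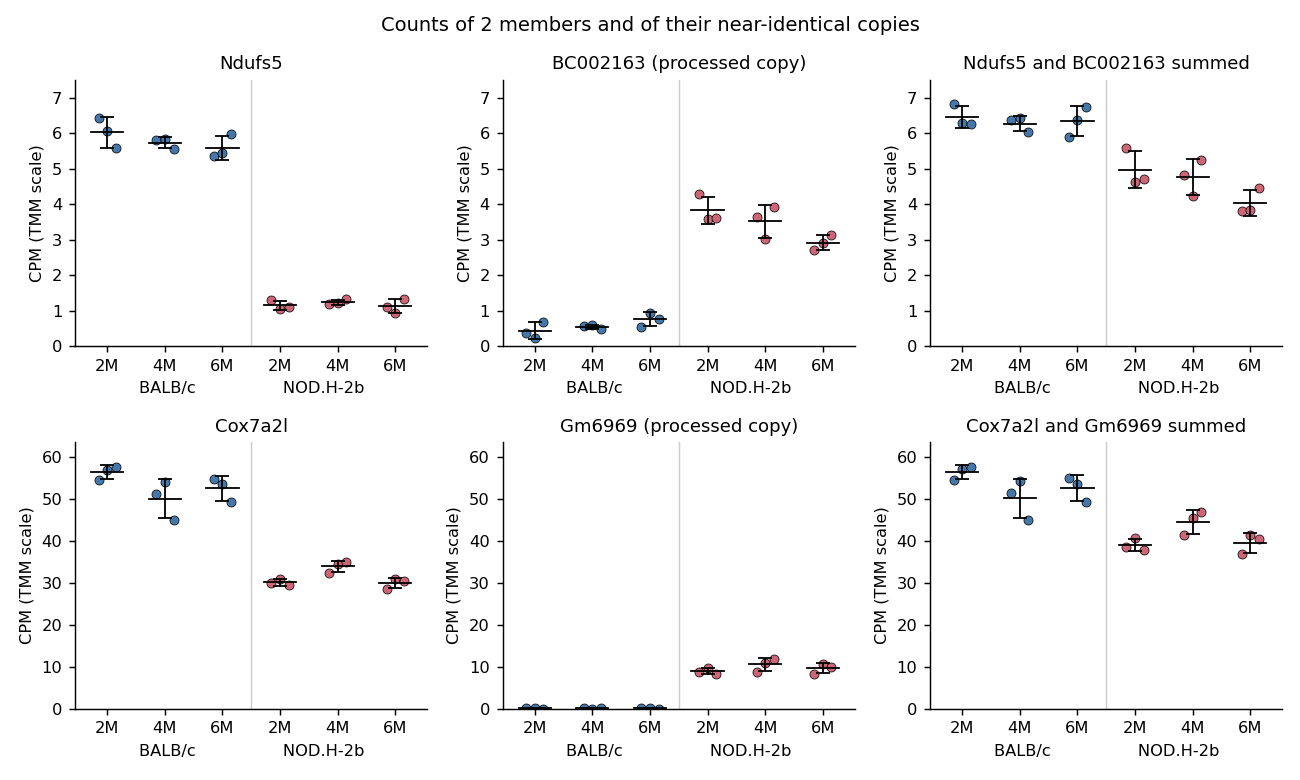
Level in CPM (TMM scale) of Ndufs5 and Cox7a2l (left), of their processed copies BC002163 and Gm6969 (middle) and of each pair summed (right) by strain and age, with 1 point per mouse and the mean ± SD over 3 mice. The members are lower and the copies higher in NOD.H-2b, and the sums lie closer together than the members alone.

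Cox7a2l showed the same arrangement at a higher level. Its level was 54.4, 56.9 and 57.6 CPM in BALB/c and 29.9, 31.0 and 29.4 CPM in NOD.H-2b mice at 2M. At 4M it was 51.2, 54.1 and 44.9 CPM against 32.4, 34.4 and 35.0 CPM, and at 6M 54.8, 53.4 and 49.2 CPM against 28.5, 30.9 and 30.3 CPM. Every NOD.H-2b mouse was below every BALB/c mouse. Gm6969 held 49 counts in the 9 BALB/c mice, at most 14 in any mouse, and 5397 in the 9 NOD.H-2b mice, at least 529 in every mouse. The mean log2 fold change of Cox7a2l was -0.76 (SE 0.0388, adjusted p = 5.25e-12), and summed with Gm6969 it was -0.37 (SE 0.0418, adjusted p = 2.29e-07, edgeR). At 4M the summed difference was -0.17 and was no longer called (adjusted p = 0.145, edgeR), against -0.56 for Cox7a2l alone (adjusted p = 0.000502). At 2M and 6M the summed differences were -0.49 and -0.38 and were called (adjusted p = 2.4e-05 and 0.00278, edgeR).

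Such copies were counted for a minority of the members. Genes that overlap a member were not compared with it, and 40 members overlap another annotated gene. Of the 91 members, 49 shared no stretch of 50 bases with a transcript of any gene compared, and 10 shared at least 10% of their stretches. In the summed fit, 31 copies of 19 members were joined to their member, the copies of Ndufs5 and Cox7a2l among them. Uqcrb, which encodes a small subunit of complex III, was the only further member with a call at an age that was lost on summing among those named here. Its processed copy Gm2962, named after its values were seen, had 1 to 9 counts per BALB/c mouse, 4, 5 and 7 counts in NOD.H-2b mice at 2M, 71, 40 and 32 at 4M and 144, 60 and 72 at 6M. Uqcrb alone was lower at 6M by a log2 fold change of -0.24 (adjusted p = 0.0315), and summed by -0.16 (adjusted p = 0.106, edgeR). Its fall from 2M to 6M in NOD.H-2b was called alone (-0.30, adjusted p = 0.0233) and not when summed (-0.21, adjusted p = 0.0632, edgeR). Summing moved few member counts in all, with 15 in place of 16 members lower at 4M and 51 in place of 52 at 6M.

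Nearly all members of the 5 complexes were measured well. The libraries held 49480781 to 103936830 counts each, and 87 of 91 members passed the filter on low counts over the 18 mice. The 4 that did not were Cox7a1, Cox7b2, Cox8b and Cox8c, all isoforms of complex IV. Levels between genes are compared as CPM per kilobase of merged exon. On this scale the median gene level was 10.9 in the core subunits of complex I, 12.6 in its accessory subunits, 16.9 in complex II, 22.9 in complex III, 26.8 in the ubiquitous subunits of complex IV and 15.8 in complex V. The assembly factors of complex I, which are not part of the finished enzyme, had a median of 1.79 CPM per kb, and the tissue isoforms of complex IV had a median of 0.0788. Atp5b, the catalytic beta subunit of the ATP synthase, had the highest level (81.3 ± 9.99 CPM per kb, SD over 18 mice). It was followed by Cox8a (50.7 ± 5.35), Cox6b1 (49.3 ± 4.59), Atp5a1 (42.7 ± 4.65) and Uqcr11 (42.3 ± 7.20), and Cox8a and Cox6b1, like Atp5a1 and Uqcr11, did not differ beyond their spread over mice. All members together took 0.221% to 0.264% of the counts of a library.

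Apart from Ndufs5 and Cox7a2l, 8 members were called in the same direction, as a mean over ages, under each of the 28 settings that were run. They were Ndufs6, Ndufb10, Ndufb9, Sdhb and Sdhc, all lower in NOD.H-2b, and Atp5e, Ndufaf5 and Ndufa8, all higher. At single ages fewer of them were called in each of the 17 settings run there. At 2M these were Ndufs6, Ndufb10, Ndufb9, Sdhb and Atp5e. At 4M they were Ndufs6, Ndufb10 and Atp5e, and at 6M Ndufs6, Sdhc and Atp5e. Ndufb10 and Ndufb9 lie outside the rule for named genes and were chosen after their values were seen. Of the 8 members, 6 shared no stretch of 50 bases with a gene that does not overlap them. Overlapping genes were not compared. Ndufs6 shared such stretches with a copy that held at most 1 count in a mouse. Sdhc shared 3 with Gm43766, which held 73 counts over the BALB/c mice and 11 over the NOD.H-2b mice.

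Ndufs6, an accessory subunit of complex I that carries zinc and lies near the iron-sulphur clusters of the peripheral arm, had the largest of these differences. Its level was 20.9, 21.2 and 21.97 CPM in BALB/c and 12.0, 11.1 and 13.7 CPM in NOD.H-2b mice at 2M. At 4M it was 20.9, 22.7 and 22.6 CPM against 11.2, 12.9 and 13.8 CPM, and at 6M 18.8, 19.9 and 19.6 CPM against 9.89, 10.1 and 12.3 CPM. The strains did not overlap at any age. From 2M to 6M the log2 fold change measured -0.76, -0.80 and -0.82 at the 3 ages, with a mean of -0.82 (SE 0.0541, adjusted p = 1.89e-10, edgeR). Ndufs6 (chr13:73319838-73328542, minus strand) overlaps Mrpl36, a mitochondrial ribosomal protein gene on the other strand, whose mean log2 fold change was -0.14 (adjusted p = 0.0732). Its processed copy Ndufs6b had at most 1 count in a mouse.

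Ndufb10 and Ndufb9 are accessory subunits of the membrane arm of complex I. Ndufb10 measured 19.1, 18.4 and 19.1 CPM in BALB/c at 2M against 13.0, 11.1 and 13.4 CPM in NOD.H-2b, 19.2, 20.9 and 20.6 CPM against 11.8, 12.2 and 15.4 CPM at 4M, and 16.7, 17.5 and 20.2 CPM against 10.8, 11.7 and 12.9 CPM at 6M. Ndufb9 measured 33.3, 33.8 and 32.5 CPM against 24.4, 22.01 and 25.1 CPM at 2M, 33.3, 30.2 and 28.7 CPM against 19.8, 24.2 and 26.3 CPM at 4M, and 30.5, 29.2 and 32.6 CPM against 18.4, 21.1 and 20.8 CPM at 6M. For both genes every NOD.H-2b mouse lay below every BALB/c mouse. The mean log2 fold change was -0.61 for Ndufb10 (SE 0.0599, adjusted p = 3.49e-08) and -0.50 for Ndufb9 (SE 0.0524, adjusted p = 1.03e-07, edgeR).

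In complex II the lower members were the iron-sulphur subunit Sdhb and the membrane anchor Sdhc. Sdhb measured 50.7, 51.7 and 50.8 CPM in BALB/c against 37.8, 35.7 and 38.3 CPM in NOD.H-2b mice at 2M, 51.0, 57.2 and 57.2 CPM against 37.5, 41.9 and 43.9 CPM at 4M, and 55.8, 49.0 and 47.6 CPM against 34.7, 38.6 and 40.0 CPM at 6M. On the TMM scale the Sdhb difference was almost level over age, with log2 fold changes of -0.41, -0.42 and -0.40. The mean over ages, from a separate fit of all mice together, was -0.44 (SE 0.0434, adjusted p = 4.63e-08, edgeR). With libraries scaled by TMM, by their totals or to a list of epithelial genes, Sdhb was called lower each time at 2M. At 4M and 6M it was not called under all of these scalings, so the level course holds for TMM alone. Sdhc measured 34.8, 33.3 and 34.0 CPM against 31.6, 28.1 and 31.9 CPM at 2M, 30.7, 33.8 and 33.6 CPM against 25.5, 24.8 and 28.9 CPM at 4M, and 36.0, 33.3 and 35.7 CPM against 20.2, 24.1 and 23.9 CPM at 6M. The Sdhc difference was -0.11 at 2M and not called (adjusted p = 0.169, edgeR), -0.30 at 4M (adjusted p = 0.0153) and -0.59 at 6M (adjusted p = 0.000333).

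Atp5e, the epsilon subunit in the central stalk of the ATP synthase, was the only member higher in NOD.H-2b at all 3 ages. It measured 27.2, 29.2 and 30.6 CPM in BALB/c against 42.4, 39.9 and 42.5 CPM in NOD.H-2b mice at 2M, 27.5, 27.8 and 29.4 CPM against 34.1, 40.3 and 44.6 CPM at 4M, and 23.9, 21.7 and 24.5 CPM against 26.4, 31.2 and 31.0 CPM at 6M. At each age all NOD.H-2b mice lay above all BALB/c mice. The log2 fold change was 0.56 at 2M (adjusted p = 2.36e-05), 0.50 at 4M (adjusted p = 0.00245) and 0.37 at 6M (adjusted p = 0.00612, edgeR). Atp5e also fell from 2M to 6M in both strains, by 0.32 on the log2 scale in BALB/c (adjusted p = 0.0235) and by 0.51 in NOD.H-2b (adjusted p = 0.00219, edgeR). The difference between these falls was -0.18 and was not called (adjusted p = 0.327).

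Ndufaf5, an assembly factor that modifies a core subunit of complex I, was higher at a low level. It measured 1.64, 1.40 and 1.48 CPM in BALB/c against 2.19, 2.36 and 1.95 CPM in NOD.H-2b mice at 2M, 2.03, 1.71 and 2.01 CPM against 2.75, 2.38 and 2.12 CPM at 4M, and 1.42, 1.75 and 1.43 CPM against 2.51, 2.24 and 2.14 CPM at 6M. The log2 fold change was 0.56 at 2M (adjusted p = 0.0308), 0.34 at 4M (adjusted p = 0.189) and 0.63 at 6M (adjusted p = 0.0183), with a mean of 0.48 (SE 0.0954, adjusted p = 0.000191, edgeR). Ndufa8, an accessory subunit of complex I imported into the intermembrane space, was higher as a mean over ages by 0.17 (SE 0.0585, adjusted p = 0.0133, edgeR) and was not called at any single age.

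**Figure D2:**
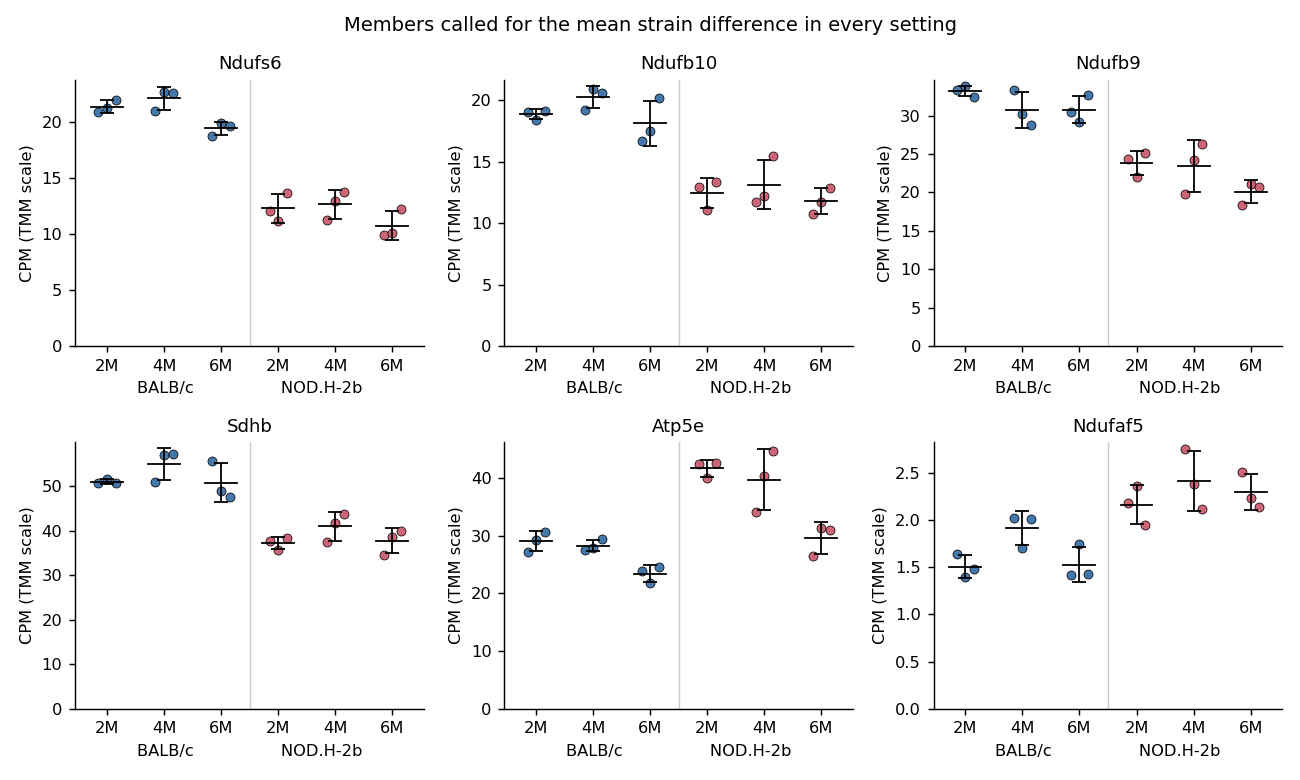
Level in CPM (TMM scale) of 6 members called for the mean strain difference in every setting, by strain and age, with 1 point per mouse and the mean ± SD over 3 mice. Ndufs6, Ndufb10, Ndufb9 and Sdhb lie lower in NOD.H-2b and Atp5e and Ndufaf5 higher, without overlap between the strains at any age.

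The remaining members differed by small amounts, and mostly at 6M. The counts that follow are over all members tested, those described above included. At 2M, 13 of 85 members tested were lower in NOD.H-2b and 3 higher, where 17.2% of all 17200 genes tested were lower and 22.5% higher. At 4M, 16 of 84 were lower and 1 higher, against 19.2% lower and 23.4% higher of all genes tested. At 6M, 52 of 84 were lower and 3 higher, against 25.8% lower and 28.6% higher. As a mean over ages, 56 of 87 were lower and 6 higher, against 33.1% lower and 32.5% higher. The median log2 fold change over the members was -0.06, -0.14 and -0.27 at the 3 ages, while over all genes tested it was 0.01, 0.00 and 0.00. At 2M and 4M the number of lower members was therefore near the background of all genes, and at 6M it was above it. In whole glands, fewer cells of a type and less RNA per cell cannot be told apart.

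Complex I had 8, 11 and 25 lower members of 42 at 2M, 4M and 6M. Its core subunits, which carry the flavin, the iron-sulphur clusters and the quinone site, had 1, 2 and 6 lower of 7, with medians of -0.12, -0.19 and -0.33. Ndufv1, which binds NADH and the flavin, measured -0.13 at 2M (adjusted p = 0.0997), -0.33 at 4M (adjusted p = 0.00739) and -0.45 at 6M (adjusted p = 0.00109, edgeR). Ndufs3 measured -0.15, -0.35 and -0.48 and was lower at 4M and 6M. Ndufs7, which holds the last cluster before quinone, was lower at 2M and 6M, Ndufs1 and Ndufv2 were lower at 6M alone, and Ndufs8 was not called at any age, with -0.14 at 6M (adjusted p = 0.261). The accessory subunits had 7, 9 and 17 lower of 28, with medians of -0.12, -0.16 and -0.29. Among the 7 assembly factors Ndufaf1 (-0.46) and Ndufaf4 (-0.28) were lower at 6M and Ndufaf5 was higher.

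In complex II the number of lower members was 1, 2 and 3 of 4. Sdha, the flavoprotein of succinate dehydrogenase, was lower at 6M by a log2 fold change of -0.27 (adjusted p = 0.0072), and Sdhd measured -0.20 at 6M and was not called (adjusted p = 0.0677, edgeR). Complex III had 1, 1 and 7 lower of 8, with medians of -0.10, -0.18 and -0.32. Its core proteins Uqcrc1 and Uqcrc2 measured -0.33 and -0.27 at 6M, the Rieske iron-sulphur protein Uqcrfs1 -0.32 and the small subunit Uqcr11 -0.42 (adjusted p = 0.00737, 0.014, 0.00963 and 0.00529, edgeR). Uqcrb was higher at 2M by 0.21 (adjusted p = 0.025) and lower at 6M, and no other member was called in opposite directions.

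Complex IV and complex V showed the smallest differences at the earlier ages. The 11 ubiquitous subunits of complex IV had 1, 0 and 6 lower, with medians of 0.00, -0.06 and -0.22. Cox6a1 was lower at 2M (-0.28) and 6M (-0.42) and Cox4i1 at 6M alone (-0.23, adjusted p = 0.0318), while Cox5a (-0.07) and Cox5b (-0.02) were not called at 6M (adjusted p = 0.487 and 0.862, edgeR). The 15 subunits of complex V had 0, 1 and 10 lower and 1, 1 and 2 higher, with medians of -0.03, -0.09 and -0.26. At 6M the catalytic core subunits Atp5a1, Atp5b and Atp5c1 measured -0.31, -0.39 and -0.29, and all of these were called. Atp5j, a peripheral stalk subunit, was lower at 4M (-0.35) and 6M (-0.47, adjusted p = 0.000634, edgeR), and overlaps Gabpa, a transcription factor gene, on the other strand. Atp5l, a membrane subunit, was higher at 6M by 0.31 (adjusted p = 0.0178), with 12.3, 12.0 and 13.2 CPM in NOD.H-2b against 9.87, 10.2 and 11.0 CPM in BALB/c. Of the genes for subunit c, which forms the rotor ring, Atp5g3 and Atp5g1 were lower at 6M (-0.26 and -0.29) and Atp5g2 was not called at that age (0.11, adjusted p = 0.456).

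**Figure D3:**
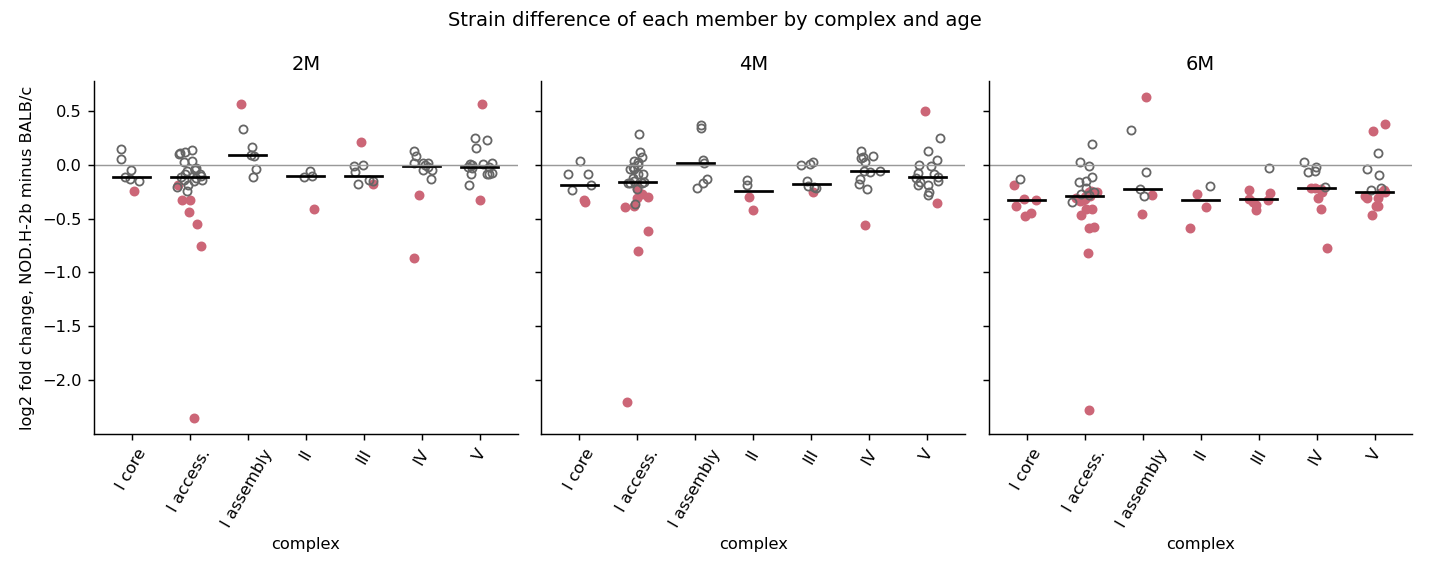
Log2 fold change, NOD.H-2b minus BALB/c, of each member tested other than the tissue isoforms at 2M, 4M and 6M by complex, with filled points called at an adjusted p below 0.05 and a line at the median. Ndufs5 lies near -2.3 at each age and the medians of the classes plotted lie below 0 at 6M.

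The direction of these small differences depended on how the libraries were scaled. TMM factors were 0.855 to 0.999 in BALB/c mice and 1.01 to 1.30 in NOD.H-2b. With library totals alone, 6, 5 and 4 members were lower and 26, 5 and 15 higher at 2M, 4M and 6M. Of all genes tested, library totals called 8.33%, 11.2% and 9.01% lower and 37.8%, 27.7% and 47.8% higher. The members' medians by library totals were 0.13, 0.01 and 0.11. On that scale the median of all genes tested was 0.20, 0.15 and 0.38. With libraries scaled to a list of 44 genes of epithelial structure, 64, 3 and 5 members were lower and 1, 7 and 7 higher. Of all genes tested, 40.8%, 6.86% and 11.5% were then lower and 15.4%, 29.9% and 39.7% higher. The members' medians were -0.31, 0.10 and 0.01 against -0.24, 0.25 and 0.28 for all genes tested. This scaling used the mean log2 level of the list, while the list's median log2 fold change by TMM was 0.01, -0.32 and -0.59. Single genes can move that mean, and Cldn4 of the list measured 3.53 as a mean over ages. Its part was not tested, and the counts by this scaling are not relative to a typical epithelial gene. The members' median minus the median of all genes was -0.07 at 2M, -0.14 to -0.15 at 4M and -0.27 at 6M under all these scalings. A change of scaling shifts all genes alike, so this distance is nearly fixed by construction and its agreement over scalings is no further support. As a share of all counts they took 0.222 ± 0.00149% in BALB/c mice and 0.236 ± 0.00612% in NOD.H-2b mice at 6M (SD, n = 3), where the lowest NOD.H-2b mouse (0.230%) was above the highest BALB/c mouse (0.224%).

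**Figure D4:**
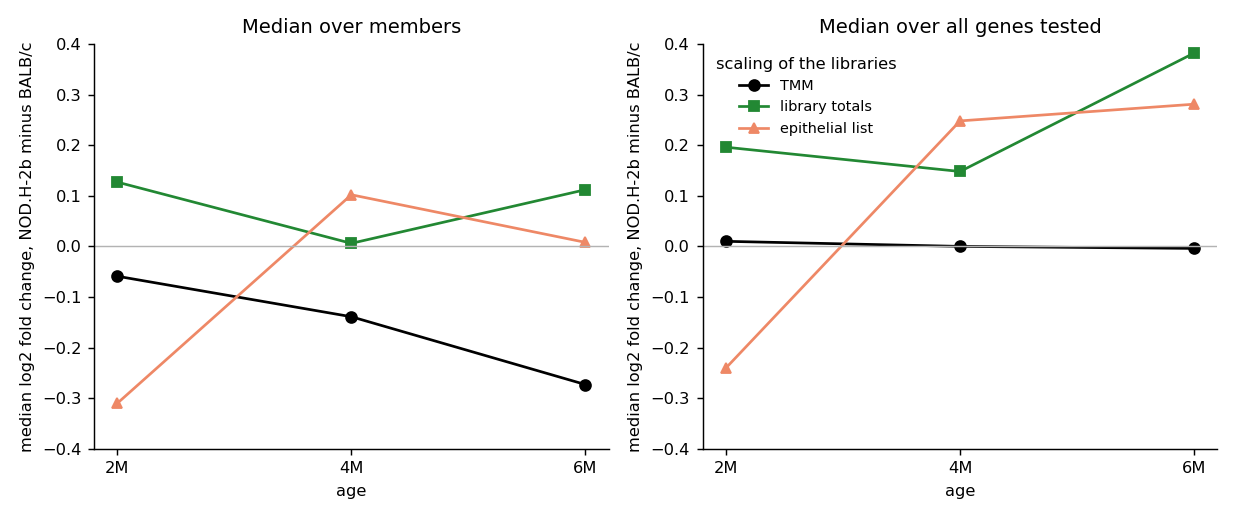
Median log2 fold change, NOD.H-2b minus BALB/c, of the members (left) and of all genes tested (right) at 2M, 4M and 6M, for libraries scaled by TMM, by their totals or to the epithelial list. The lines of the left panel follow those of the right panel at a distance of about 0.07, 0.14 and 0.27.

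Ndufs6, Ndufb10 and Atp5e did not depend on this choice in direction. With library totals the mean log2 fold change was -0.56 for Ndufs6, -0.35 for Ndufb10, -0.23 for Ndufb9, -0.17 for Sdhb, -0.10 for Sdhc, 0.71 for Atp5e, 0.75 for Ndufaf5 and 0.44 for Ndufa8, and each was called. Scaled to the epithelial list the values were -0.70, -0.50, -0.38, -0.32, -0.25, 0.57, 0.61 and 0.29 in the same order, and each was called.

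Markers of other cell types moved with strain and age. The epithelial list summed to 3745 to 3812 CPM in BALB/c mice and 2190 to 2680 CPM in NOD.H-2b mice at 6M, and 32 of its 44 genes were lower at 6M, 24 at 4M and 10 at 2M, while 3, 1 and 15 were higher. The sum of 10 B cell markers was at most 2.91 CPM in any BALB/c mouse and was 1.81 to 34.5 CPM in NOD.H-2b mice at 2M, 176 to 386 CPM at 4M and 262 to 528 CPM at 6M. T cell markers (10 of 10 higher at each age) and macrophage markers (9, 8 and 8 of 10 higher) moved in the same direction. Of 8 plasma cell markers 3, 5 and 5 were higher and 1, 1 and 2 lower at 2M, 4M and 6M, with Derl3 at -0.59 as a mean over ages. The part of these shifts in the members' differences was not tested.

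Within strains, age changed few members in BALB/c on the TMM scale. From 2M to 4M, 3 members were lower and 2 higher of 84, where 11.1% of all genes tested were called in either direction. Atp5g3, Ndufaf4 and Uqcrfs1 fell by 0.19, 0.37 and 0.22 on the log2 scale, and Atp5j2 and Atp5k, subunits of the membrane part of the ATP synthase, rose by 0.22 and 0.61. From 2M to 6M, Atp5e, Atp5g3 and Uqcrc1 were lower, where 5.61% of all genes were called. From 4M to 6M no member was called, with 0.307% of all genes. Scaled to the epithelial list, 41 members were lower (33.1% of all genes) and 1 higher (3.71%) from 2M to 4M. On that scale 5 members were lower from 2M to 6M (3.67% of all genes) and 6 higher from 4M to 6M (10.8%).

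In NOD.H-2b the members were lower at 6M than at 2M. From 2M to 6M, 37 of 85 members were lower and only Atp5l was higher, against 19.4% lower and 20.7% higher of all genes tested, and the members' median was -0.22 against -0.02 in BALB/c. By complex, 16 of 42 were lower in complex I, 2 of 4 in complex II, 6 of 8 in complex III, 4 of 14 tested in complex IV and 9 of 17 in complex V. Uqcrc1 fell by 0.42 on the log2 scale (adjusted p = 0.00553), Ndufv1 by 0.45 (adjusted p = 0.00367), Atp5b by 0.41 (adjusted p = 0.00723) and Atp5g3 by 0.54 (adjusted p = 0.00119, edgeR). From 2M to 4M only Atp5g3 was called lower, where 15.8% of all genes were called, and from 4M to 6M no member was called, where 1 gene of 18026 was (0.00555%). Epithelial list genes fell over the same interval, with 37 of 44 lower from 2M to 6M and a median of -0.58. This age difference also followed the scaling. By library totals 8 members were lower and 1 higher, beside 8.32% lower and 24.9% higher of all genes. Scaled to the epithelial list 0 were lower and 51 higher, beside 1.65% lower and 57.1% higher of all genes.

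On the TMM scale the mean level of each complex per mouse was lowest in NOD.H-2b at 6M. As a share of all counts the order of the strains at 6M was the reverse. The mean share of each complex was then higher in NOD.H-2b, as in complex I (0.0694% against 0.0658%) and complex V (0.0872% against 0.0819%). These means include Ndufs5 and Cox7a2l without their copies. In complex IV the mean in NOD.H-2b at 2M was -0.14. At that age Cox7a2l measured -0.86 and the ubiquitous subunits had a median log2 fold change of 0.00. Relative to BALB/c at 2M, the mean log2 level of 83 members was -0.13 ± 0.0674, -0.13 ± 0.114 and -0.31 ± 0.0677 (SD, n = 3) in NOD.H-2b mice of 2M, 4M and 6M, and 0.02 ± 0.0211 and -0.02 ± 0.0414 in BALB/c at 4M and 6M. At 6M the value was -0.33 in complex I, -0.39 in complex II, -0.39 in complex III, -0.30 in complex IV and -0.23 in complex V. At 4M the NOD.H-2b mice were widely spread, from -0.24 to -0.02 over all members.

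**Figure D5:**
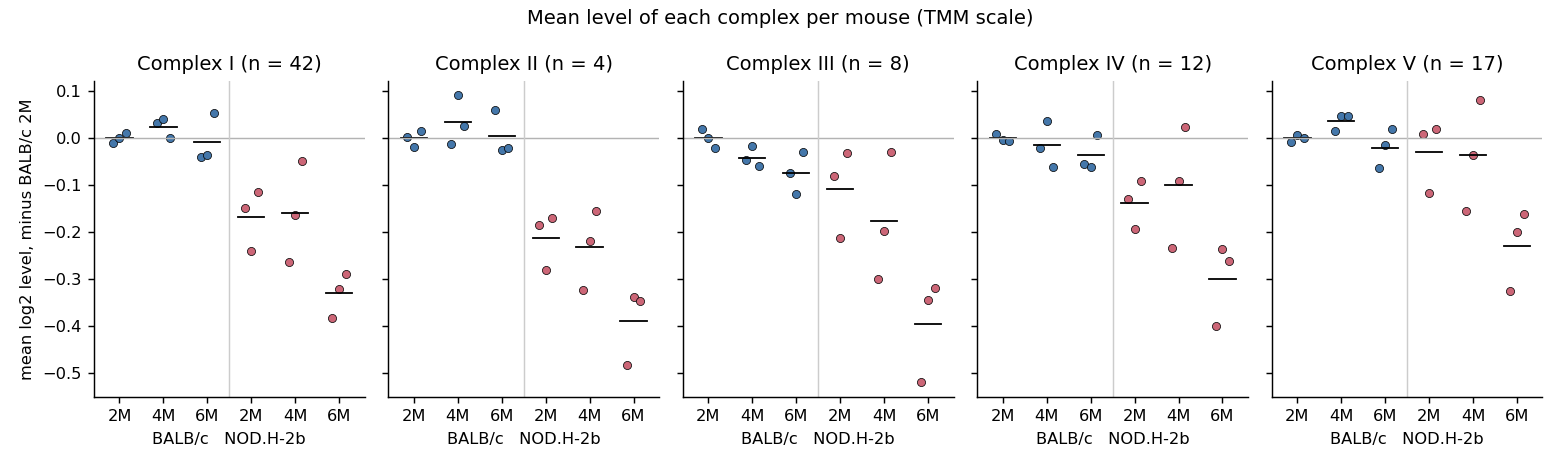
Mean log2 level (TMM scale) of the members of each complex, minus the mean of BALB/c at 2M, with 1 point per mouse and a line at the mean of 3 mice. BALB/c mice stay near 0 at all ages and NOD.H-2b mice at 6M lie between -0.16 and -0.52. Ndufs5 and Cox7a2l are included without their copies.

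The change of the strain difference with age was called for few members on the TMM scale. Between 2M and 4M it was called for 0 of 87 members, where 1.67% of all genes were called by edgeR, and for 66 when scaled to the epithelial list, all with the difference moving upward, where 34.1% of all genes were called in that direction. Between 2M and 6M it was called for 7, all with the difference moving downward, where 16.1% of all genes were called in either direction. They were Sdhc (-0.47, adjusted p = 0.00936), Uqcrb (-0.44, adjusted p = 0.00777), Ndufs4 (-0.43, adjusted p = 0.00976), Ndufc1 (-0.36, adjusted p = 0.0425), Ndufv1 (-0.31, adjusted p = 0.0408), Uqcrc2 (-0.25, adjusted p = 0.0414) and Ndufs1 (-0.23, adjusted p = 0.0469, edgeR). Of all genes, 9.09% were called downward and 7.04% upward. The downward share of members was therefore near the background, and no member was called upward. Ndufs4, an accessory subunit of complex I, measured 12.7, 13.1 and 13.1 CPM in BALB/c and 14.1, 13.2 and 13.2 CPM in NOD.H-2b mice at 2M, a log2 fold change of 0.10 that was not called (adjusted p = 0.287, edgeR). At 6M it measured 14.2, 14.8 and 12.8 CPM against 10.5, 10.9 and 11.0 CPM, and NOD.H-2b was lower (-0.34, adjusted p = 0.0123, edgeR). All 7 values turned positive when libraries were scaled to the epithelial list, where 49 members were called, all upward, beside 36.6% of all genes.

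The tissue isoforms of complex IV were at or near 0. Cox6a2, the isoform of Cox6a1 in heart and skeletal muscle, had 0 or 1 counts in each BALB/c mouse, and in NOD.H-2b 2, 5 and 7 counts at 2M, 16, 15 and 2 at 4M and 2, 1 and 14 at 6M. It was called higher as a mean over ages (adjusted p = 0.000307, edgeR), and no fold is given at these counts. Cox6a2 overlaps Itgad, an integrin gene of macrophages, on the other strand, and Itgad had 0 or 1 counts in BALB/c mice and 21 to 129 in NOD.H-2b. Cox6b2, an isoform known from testis, was also called higher (adjusted p = 0.000154, edgeR), with 0 to 4 counts in BALB/c mice and 2 to 14 in NOD.H-2b. Cox7a1, the muscle isoform of Cox7a2, had 0 to 3 counts in BALB/c mice and 2 to 13 in NOD.H-2b and was not tested. Cox7b2, Cox8b and Cox8c had at most 3, 2 and 5 counts in a mouse. Cox4i2 had 1 to 22 counts and Ndufa4l2 5 to 36, and neither was called as a mean over ages. The 14 skeletal muscle markers summed to 0.493 to 2.28 CPM and 5 brown adipocyte markers to 0.418 to 3.98 CPM, and both sums were lower in NOD.H-2b than in BALB/c at every age. Single markers differed in direction, with 2 lower and 4 higher of 6 muscle markers tested as a mean over ages (median 1.54, Mb -3.57 and Tnni2 3.34) and 1 lower and 1 higher of 3 brown adipocyte markers tested. Their part in the isoforms was not tested, and Ucp1, the uncoupling protein of brown fat, was at 0 in BALB/c at 2M and 6M. The partners Cox6a1, Cox6b1, Cox7a2, Cox7b, Cox8a and Ndufa4 are the ubiquitous subunits described with complex IV.

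Other genes of the pathway were counted from lists, on the TMM scale alone. This also holds for the regulators, carriers and mitochondrial genes below. Library totals moved the median of all genes tested, as a mean over ages, from -0.02 to 0.25. Smaller differences of the listed genes can therefore change sign with the scaling, which was not tested for them. Of 18 genes of electron carriers and coenzyme Q synthesis, 11 were lower and 2 higher as a mean over ages, with a median of -0.22. Coq8a, needed for coenzyme Q synthesis, had the largest lower value (-0.54) and Pdss1, which makes the isoprenoid tail, the largest higher value (0.55). Of 46 tested assembly factors outside the rule, 20 were lower and 5 higher. Lyrm7, an assembly factor for the Rieske protein of complex III, had the largest difference of that list (-1.98, SE 0.186, adjusted p = 2.1e-08, edgeR). Its means were 1.16, 1.06 and 1.42 CPM in BALB/c against 0.373, 0.247 and 0.303 CPM in NOD.H-2b mice at 2M, 4M and 6M. Copies of Lyrm7 were not searched. Cox17, a copper chaperone of complex IV, was higher by 0.39 (adjusted p = 0.000526). Of 77 tested mitochondrial ribosomal proteins, 39 were lower and 2 higher, with Mrps10 at -0.86 and Mrpl23 at 0.40. These counts stand against 33.1% lower and 32.5% higher of all genes tested.

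Among 16 regulators of mitochondrial biogenesis, 7 were lower and 5 higher as a mean over ages, beside 33.1% lower and 32.5% higher of all genes tested. Esrra, the estrogen-related receptor that acts on respiratory genes, was lower by a log2 fold change of -0.45 (SE 0.0477, adjusted p = 1.03e-07, edgeR), from 15.8, 15.9 and 12.3 CPM in BALB/c to 11.8, 10.9 and 9.41 CPM in NOD.H-2b mice at 2M, 4M and 6M. Its coactivator gene Ppargc1a was higher by 1.18 (adjusted p = 0.0013) at 0.105 to 0.372 CPM in group means. Gabpa, which codes for the ETS factor GABP, measured -0.18, Nrf1 0.13 and Tfam, the packaging factor of mitochondrial DNA, 0.21, all called on the TMM scale. Of 7 tested carriers, 5 were lower and 1 higher beside the same shares of all genes, with Ucp2 at -0.56 and the ADP/ATP carrier Slc25a4 at 0.72.

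Of the 13 subunits encoded in mitochondrial DNA, 10 were tested. As a mean over ages, 33.1% of all genes tested and 5 of these subunits were lower. They were mt-Nd2 (-0.80, adjusted p = 2.97e-08), mt-Nd4 (-0.62), mt-Nd5 (-0.42), mt-Cytb (-0.38) and mt-Nd1 (-0.26), while mt-Co1 measured 0.09 (adjusted p = 0.0654, edgeR) and mt-Nd6 -0.01. Others, such as mt-Nd3, mt-Co2 and mt-Atp6, stood below 1 CPM in all group means, so the counts do not give their levels. In BALB/c, 6 of 9 tested mitochondrial genes were higher at 6M than at 2M, with a median of 0.59, where 3.48% of all genes tested were higher.

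The promoters of the members were searched for short motifs of NRF1, the ETS factors, the estrogen-related receptors (ERR) and YY1, factors known from respiratory genes. RefSeq promoters of 300 bp around the transcription start were matched for 75 of 91 members and searched on both strands for exact letters. The NRF1 motif GCGCATGCG was found in 10 members (13.3%, against 1.81% of 27025 promoters), the ETS motif CCGGAAGT in 5 (6.67% against 4.00%), the ERR motif TCAAGGTCA in 2 (2.67% against 0.407%) and the YY1 motif AAGATGGCG in 7 (9.33% against 1.49%). At least 1 of the 4 was found in 30.7% of the members and 7.36% of all promoters. Of the members called in every setting as a mean over ages, Ndufaf5 and Ndufa8 held the NRF1 motif and Ndufs6 the YY1 motif.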

How the data were processed

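LG RNA was depleted of ribosomal RNA and sequenced as paired reads. Per the study's methods and the submitters' processing notes, the authors used cutadapt for trimming, STAR for alignment (GRCm38) and HTSeq for counting, and the deposited values are whole-number counts per gene that are not normalised. Versions, the treatment of reads that match several genes and the strand setting are not given in the sources used here. A table of the authors' normalised counts was not used. Reads of both strains were aligned to one C57BL/6J reference.

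Counts were fitted over all genes in R 4.3.3 with edgeR 4.0.16 (TMM, filterByExpr, robust quasi-likelihood test, Benjamini-Hochberg, adjusted p below 0.05). Each age and each pair of ages was fitted on its own 6 mice, and the mean over ages and strain by age on all 18. Standard errors of log2 fold changes were derived from the fitted tests. Per-mouse log2 levels used a prior of 0.5 CPM. The script was tested on simulated counts. Members and lists were chosen with earlier results of these data known. Named were the 2 largest called differences per complex and direction, core subunits, isoforms, members with at least 2-fold at an age, the strain by age calls with the 5 smallest p, and the extreme called genes of each list. Copies were genes that do not overlap the member and whose GENCODE M21 transcripts share 50-base stretches with it. Alternatives were DESeq2 1.42.0, other scalings and filters, a replicate block, leaving out each mouse and, chosen after seeing the data, library totals and summing with copies. Not every result that this rule names is reported here.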

Additional observations from a re-analysis of the deposited data

Results flagged for a closer look

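Between 2M and 6M the strain difference changed for 7 members by the interaction test (edgeR), as log2 fold change at 6M minus that at 2M. The values were -0.442 for Uqcrb, -0.469 for Sdhc, -0.431 for Ndufs4, -0.308 for Ndufv1, -0.245 for Uqcrc2, -0.362 for Ndufc1 and -0.233 for Ndufs1. When Uqcrb was summed with its copies the value was -0.36 and was still called (adjusted p = 0.0169). The epithelial list fell by a median of -0.58 in the same contrast, with 32 of its 44 genes called, and its part in the members' values was not tested.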

How the results depend on the processing

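Scaling had the largest effect. With library totals the members' median strain difference was 0.127 at 2M, 0.006 at 4M, 0.112 at 6M and 0.082 over ages, and scaled to the epithelial list -0.310, 0.102, 0.008 and -0.065. Lower members numbered 6, 5, 4 and 7 by library totals and 64, 3, 5 and 25 by the epithelial list at 2M, 4M, 6M and over ages. Higher members numbered 26, 5, 15 and 34, and 1, 7, 7 and 12. Of all genes tested, library totals called 8.33%, 11.2%, 9.01% and 14.3% lower and 37.8%, 27.7%, 47.8% and 53.3% higher. The epithelial list called 40.8%, 6.86%, 11.5% and 21.5% lower and 15.4%, 29.9%, 39.7% and 38.2% higher. Members called in BALB/c were 3 and 42 from 2M to 4M and 6 and 5 from 2M to 6M, and 6 by the epithelial list from 4M to 6M. Shares of all genes, lower then higher, from 2M to 4M were 2.08% and 5.69%, and 33.1% and 3.71%. From 2M to 6M the shares were 3.41% and 2.74%, and 3.67% and 3.02%. From 4M to 6M they were 0.199% and 10.8% by the epithelial list. Members called among NOD.H-2b mice were 2 and 10 from 2M to 4M, and 9 by library totals from 2M to 6M. Shares of all genes from 2M to 4M were 6.67% and 8.55%, and 0.906% and 13.5%. From 2M to 6M they were 8.32% and 24.9% by library totals. Strain by age gave 66 by the epithelial list to 4M, and 2 and 49 to 6M. Shares of all genes to 4M were 0.486% and 34.1% by the epithelial list. To 6M they were 3.19% and 9.67% by library totals and 0.983% and 36.6% by the epithelial list. Under library totals these named members turned positive as a mean over ages: Atp5a1 0.049, Atp5b 0.015, Atp5c1 0.074, Atp5g3 0.080, Cox4i1 0.058, Cox5b 0.212, Cox6b1 0.178, Cox7a2 0.192, Cox7b 0.147, Cox8a 0.071, Ndufa4 0.128, Ndufaf1 0.048, Ndufaf4 0.111, Ndufs1 0.162, Ndufs8 0.252, Ndufv2 0.084, Sdha 0.082, Sdhd 0.075, Uqcrc2 0.092 and Uqcrfs1 0.001. Under the epithelial list Ndufs1 became 0.015 over ages, and strain by age from 2M to 6M became 0.084 for Uqcrb, 0.056 for Sdhc, 0.096 for Ndufs4, 0.218 for Ndufv1, 0.281 for Uqcrc2, 0.164 for Ndufc1 and 0.296 for Ndufs1. Why the scalings differ was not tested.

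Fitting all 18 mice gave 27 lower and 4 higher members at 4M, 5 higher at 6M, 2 and 1 changed in BALB/c from 2M to 4M and 6M, and 5 and 13 in NOD.H-2b mice from 2M to 4M and 4M to 6M. Without a filter 5 were higher at 4M and 6 at 6M, 8, 7 and 1 changed in BALB/c (2M to 4M, 2M to 6M, 4M to 6M), 2 in NOD.H-2b mice from 2M to 4M and 3 with strain by age to 6M. A minimum of 10 counts gave 2 higher at 4M and 1 with strain by age to 4M. The DESeq2 Wald test gave 1 changed in BALB/c from 4M to 6M, 2 in NOD.H-2b mice from 2M to 4M, and 1 and 11 with strain by age to 4M and 6M. DESeq2 size factors gave 2 in NOD.H-2b mice from 2M to 4M and 3 with strain by age to 6M, and the upper quartile 3 in NOD.H-2b mice from 2M to 4M. With the replicate number as a block, NOD.H-2b had 0, 21 and 2 changed members (2M to 4M, 2M to 6M, 4M to 6M). The labels do not say that these numbers pair the mice. Over 45 same-number pairs of groups the correlation of deviations ran from -0.421 to 0.432 (median 0.0352, 7 above 0.1), which cannot exclude a pairing.

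Leaving out each mouse gave 9 to 20 lower and 1 to 3 higher members at 2M, 9 to 28 and 1 to 3 at 4M, and 1 to 3 higher at 6M, where 36 to 45 were lower. In BALB/c it gave 2 to 5 (2M to 4M), 0 to 11 (2M to 6M) and 0 to 1 (4M to 6M), in NOD.H-2b 0 to 3 (2M to 4M) and 14 to 36 (2M to 6M), and for strain by age to 6M 3 to 13. The lower count at 4M was 9 and 10 without BALB/c replicates 1 and 2 and 28 without NOD.H-2b replicate 3. At 2M it was 20 without NOD.H-2b replicate 3. From 2M to 6M in NOD.H-2b it was 21 and 14 without replicates 1 and 3 of 2M, and 24 and 23 without replicates 1 and 3 of 6M. With 3 mice per group small differences can be missed, and counts of under 20 per gene limit the tissue isoforms.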
